A study of Mus musculus with 6 samples.

Results

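Genes that make, bind and break down hyaluronan were examined in methotrexate-selected MR13 cells and in the parental WTR- cells. The set of 9 genes was drawn up by gene symbol for its role in hyaluronan biology, with earlier results of these data known. It holds Ugdh, which makes a nucleotide sugar precursor, the synthases Has1, Has2 and Has3, the hyaluronan-binding protein gene Tnfaip6, the receptor gene Cd44, and the breakdown genes Cemip, Hyal1 and Hyal2. Of the 9, 8 had a probe set that the platform annotation pairs with their symbol alone, among 19933 genes with such a probe set, and each of the 8 had 1 probe set only. Hyal1 was paired with 2 probe sets that the annotation gives jointly to Hyal1 and its neighbour Naa80, so no value was assigned to Hyal1.

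To study cells that escape chemotherapy, RNA of both lines was profiled on Affymetrix arrays. The 4T1 line derives from a mammary carcinoma of a BALB/c mouse. The MR13 group (3 arrays) was 4T1 cells selected with methotrexate (MTX), an inhibitor of folate metabolism, which the sample labels give as 13 µg/ml for up to 2 weeks, and the WTR- group (3 arrays) was untreated 4T1 cells. In the results text of the study the concentration is far lower, so that the unit in the labels may be in error. There the exposure is also longer and the surviving cells return to drug-free medium. Neither source says whether MTX was present when RNA was taken. The labels describe triplicate wells, so p-values measure the spread between wells or cultures of a single selected line and not between selections.

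Values are on the log2 scale, so a difference of 1 is a 2-fold change in signal. They are given as mean ± SD (n = 3 arrays each), each difference is the MR13 mean less the WTR- mean, with its standard error (SE) from limma, and calls required an adjusted p below 0.05. The array medians lay between 6.57 and 6.62. Over all probe sets, arrays of the same line correlated at r = 0.998 to 0.999 and arrays of different lines at r = 0.984 to 0.987, across probe sets that are not independent replicates. The epithelial keratins Krt8 (13.53 ± 0.07 in MR13 and 13.41 ± 0.06 in WTR-) and Krt18 (12.80 ± 0.06 in MR13 and 12.99 ± 0.02 in WTR-) were strong on all arrays. However, 4 of the 5 epithelial markers fell in MR13 (all genes, 20.6%), among them Epcam by 4.30 and Cdh1 by 3.24.

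Hyaluronan is a long, unbranched polymer of glucuronic acid and N-acetylglucosamine. Synthases in the plasma membrane build it from the 2 matching UDP-sugars and extrude it into the pericellular space, where proteins bind and cross-link it and where receptors, above all CD44, tie it to the cell. Long chains are cut at the cell surface and the fragments are digested in lysosomes, and a hyaluronan-rich coat with high CD44 is a known trait of aggressive breast cancer cells.

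Of the 8 measured genes, 6 were called, 3 of them higher and 3 lower in MR13. Among all genes 37.6% were called, 17.0% higher and 20.6% lower. The 2 genes with the largest differences were Cemip, a hyaluronan-binding protein needed for its depolymerisation, which rose 2.84-fold in MR13 (95% CI 2.57 to 3.14), and Tnfaip6, which encodes the matrix-modifying protein TSG-6 and rose 2.42-fold (95% CI 1.98 to 2.97). Differences of at least 1 on the log2 scale were called for these 2 genes, and for 4.06% of all genes. Their WTR- means, 5.89 for Cemip and 5.88 for Tnfaip6, lay below the array medians and were not shown to exceed background. The fold changes in transcript may therefore be larger than those in signal. Ugdh also rose, while the synthases Has2 and Has3 and the receptor gene Cd44 fell, by 0.55, 0.62 and 0.24 on the log2 scale. The median difference of the 8 genes was -0.0037, beside 0.0096 for all genes. The MR13 and WTR- values did not overlap for 6 of the 8 genes, beside 47.4% of all genes, and lay higher in MR13 for 3 of them (22.2% of all genes) and lower for 3 (25.2% of all genes).

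**Figure D1:**
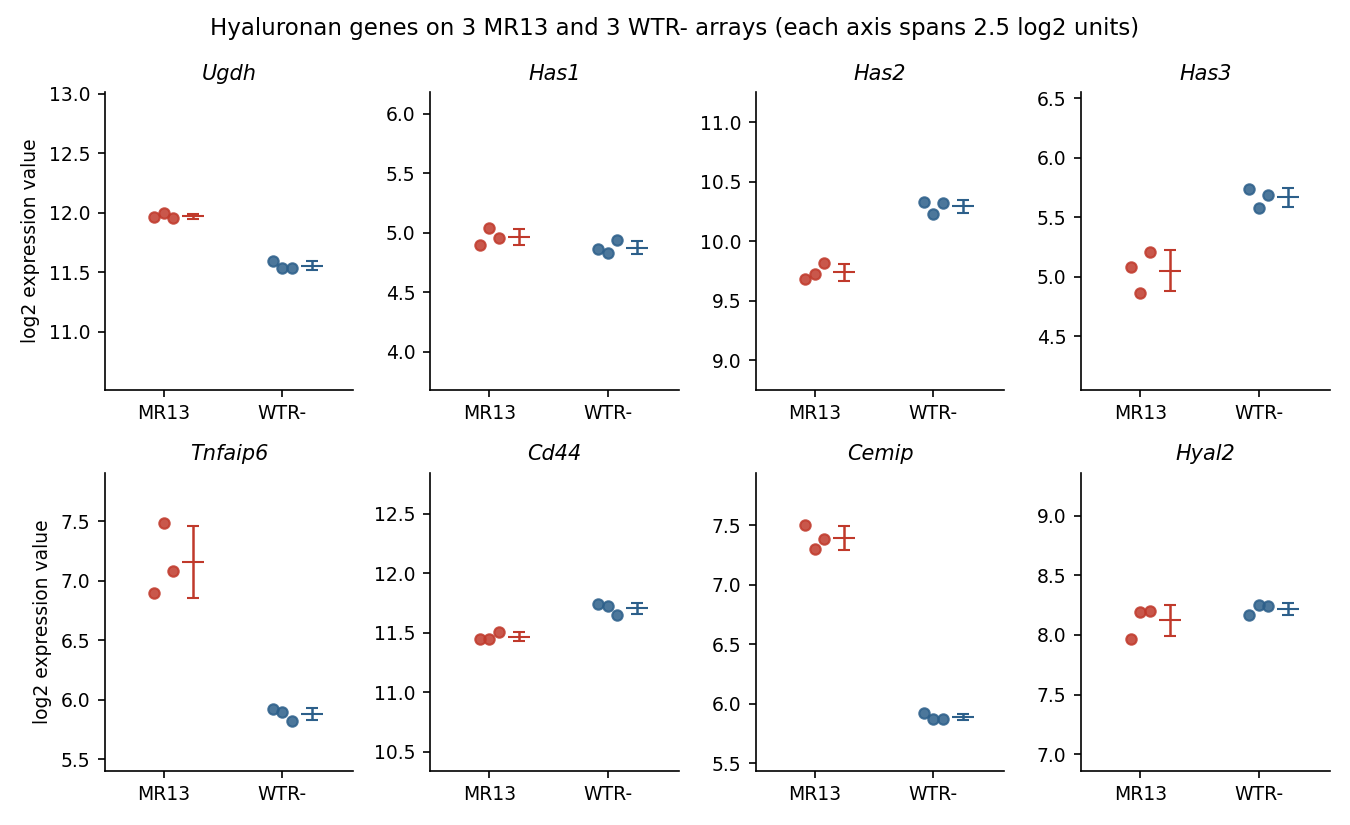
Deposited log2 values (y axis, each panel spanning the same log2 range at its own level) of the 8 measured hyaluronan genes on the MR13 arrays (left) and the WTR- arrays (right); points are arrays, and dashes with bars are means and SDs. Cemip and Tnfaip6 stand clearly higher in MR13, Has2, Has3 and Cd44 lower, and the groups overlap for Has1 and Hyal2.

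Ugdh oxidises UDP-glucose to UDP-glucuronic acid, a building block that hyaluronan shares with the sulphated glycosaminoglycans. Its values were 11.96, 12.00 and 11.95 on the MR13 arrays, against 11.60, 11.53 and 11.54 on the WTR- arrays. Every MR13 value was above every WTR- value, and the arrays of a line lay close together. The rise was 0.41 (SE 0.05), or 1.33-fold (95% CI 1.23 to 1.44), with an adjusted p of 0.00018.

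The other precursor enzymes went both ways. Of 15 measured genes that supply or divert UDP-glucose and UDP-N-acetylglucosamine, 3 rose (all genes, 17.0%), 4 fell (20.6%) and 8 were not called. The median difference was -0.06. Pgm1, a phosphoglucomutase on the route to UDP-glucose, rose by 1.02 (SE 0.06, adjusted p = 2.72e-06), with 10.72, 10.85 and 10.69 in MR13 and 9.80, 9.71 and 9.68 in WTR-. The others that rose, named after their values were seen, were Ugp2, which makes UDP-glucose, by 0.24 (SE 0.05), and the hexosamine pathway enzyme gene Gfpt2 by 0.15 (SE 0.05), a call near the threshold (adjusted p = 0.046) that was lost under 11 of 14 alternatives. Pgm1, Ugp2 and Ugdh, which can act in turn between glucose-6-phosphate and UDP-glucuronic acid, were each called higher, whereas Pgm2, a relative of Pgm1 also named after its values were seen, was not called (-0.06, 95% CI -0.19 to 0.06).

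On the hexosamine side, the largest difference was that of Gnpda2, a glucosamine-6-phosphate deaminase that takes sugar out of the pathway. It fell by 1.66 (SE 0.05, adjusted p = 5.46e-08), with 8.52, 8.48 and 8.54 in MR13 and 10.15, 10.15 and 10.24 in WTR-. Gnpnat1, which acetylates glucosamine-6-phosphate, fell by 0.66 (SE 0.06), and Nagk, the kinase that salvages N-acetylglucosamine, by 0.38 (SE 0.07). Uxs1, named after its value was seen, consumes UDP-glucuronic acid and fell by 0.29 (SE 0.06). Neither Gfpt1 (0.11, 95% CI -0.01 to 0.23), the entry enzyme of this pathway, nor Uap1 (0.06, 95% CI -0.06 to 0.18), the enzyme that completes UDP-N-acetylglucosamine, was called, and both were likewise named after their values were seen. Gfpt1 was called after a further quantile normalization (adjusted p = 0.018).

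The 3 synthases span the membrane and differ mainly in expression and in the length of the chains they make. Has2, the synthase that mouse embryos cannot do without, measured 9.68, 9.72 and 9.82 in MR13 and 10.33, 10.23 and 10.32 in WTR-. All 3 MR13 values were lower, and the gap between the lines was wider than the spread within either. Has2 was 1.47-fold lower in MR13 (95% CI 1.34 to 1.61, log2 difference -0.55, SE 0.06, adjusted p = 8.04e-05). In the RefSeq annotation Has2 shares its locus with the opposite-strand gene Has2os, for which no probe set was annotated, and the loci of Has1, Cd44 and Cemip also overlap other annotated genes.

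Has3 measured 5.08, 4.87 and 5.21 in MR13 and 5.74, 5.58 and 5.69 in WTR-. It was also lower on every MR13 array, with an SD of 0.17 in MR13 and 0.08 in WTR-. Has3 was 1.53-fold lower in MR13 (95% CI 1.33 to 1.76, log2 difference -0.62, SE 0.09, adjusted p = 0.00052). Has1 measured 4.90, 5.04 and 4.96 in MR13 and 4.86, 4.83 and 4.94 in WTR-, and its groups overlapped. No difference was detected for it (0.09, 95% CI -0.04 to 0.22, adjusted p = 0.28). Has1 and Has3 were among the 30% of genes with the lowest mean, under 5.51. No detection calls were used, and background signal at that level can hide or understate a difference in transcript.

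**Figure D2:**
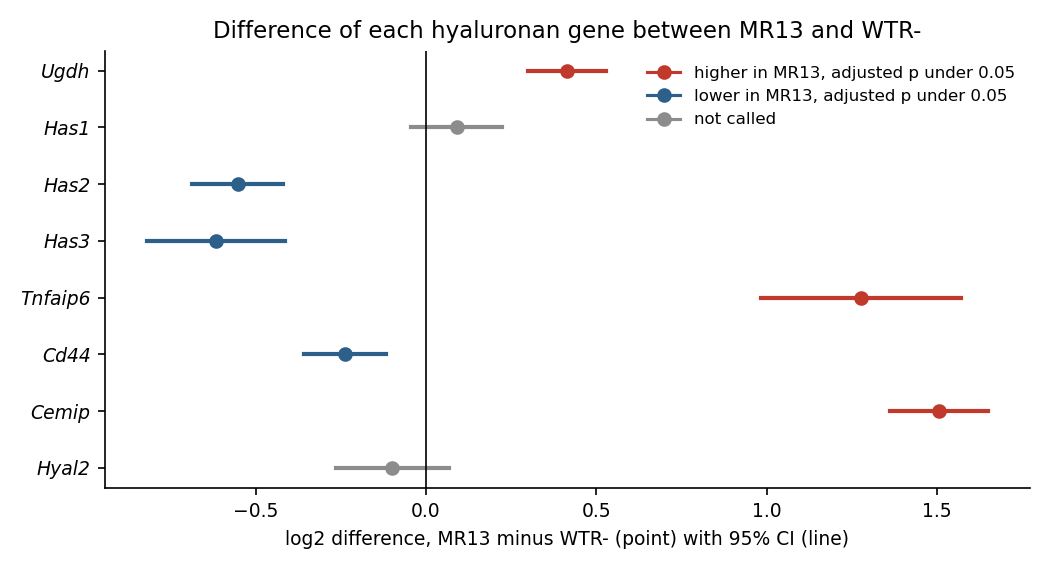
Log2 difference between MR13 and WTR- (x axis) of the 8 measured hyaluronan genes (y axis, ordered from precursor supply and synthesis to binding and breakdown); points are estimates and lines 95% CIs from limma. Cemip (1.51) and Tnfaip6 (1.28) lie far to the right of the other genes, and the intervals of Has1 and Hyal2 include 0.

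Tnfaip6 encodes TSG-6, a secreted protein that binds hyaluronan and transfers onto it the heavy chains of inter-alpha-inhibitor, and it is known as an inflammation-induced gene. It measured 6.90, 7.49 and 7.08 in MR13 and 5.92, 5.89 and 5.82 in WTR-. The lowest MR13 array was well above the highest WTR- array, although MR13 replicate 2 was above its fellows and the SD in MR13 (0.30) was the largest among the 8 genes. The difference was 1.28 (SE 0.13, adjusted p = 5.94e-05).

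Of 16 measured genes of hyaluronan-binding matrix and cross-linking proteins, 3 rose (all genes, 17.0%), none fell (all genes, 20.6%) and 13 were not called. The median difference was 0.07. The 3 that rose were Itih2, Ptx3 and Itih4. Itih2 encodes a heavy chain of the kind that TSG-6 transfers, and it measured 5.60, 5.69 and 5.80 in MR13 and 5.01, 4.90 and 4.68 in WTR- (difference 0.83, SE 0.09, adjusted p = 8.25e-05). Ptx3, a pentraxin that cross-links such heavy chain-modified hyaluronan in the matrix around mouse oocytes, measured 5.67, 5.86 and 5.63 in MR13 and 5.02, 4.80 and 4.94 in WTR- (0.80, SE 0.08, adjusted p = 6.11e-05). Itih4, a related heavy chain gene, rose by 0.22 (SE 0.05). All 3 were among the 30% of genes with the lowest mean, as were 9 of the 16 list members. The large proteoglycan Vcan, named after its values were seen, was not called (0.14, 95% CI -0.03 to 0.31).

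For the 2 genes that rose the most, the sequence before the transcription start is shown with the motifs found in it. The windows were taken from RefSeq (GRCm38.p6), as the 250 bases before each annotated start, 5′ to 3′ on the strand of the gene, at chr7:84086506-84086755 (minus strand) for Cemip and at chr2:52037863-52038112 (plus strand) for Tnfaip6, and capitals mark motif matches.
Cemip: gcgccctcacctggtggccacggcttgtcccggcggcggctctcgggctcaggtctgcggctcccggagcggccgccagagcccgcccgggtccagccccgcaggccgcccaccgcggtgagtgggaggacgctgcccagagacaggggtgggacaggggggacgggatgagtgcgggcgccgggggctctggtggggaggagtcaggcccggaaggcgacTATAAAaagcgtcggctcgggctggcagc
Tnfaip6: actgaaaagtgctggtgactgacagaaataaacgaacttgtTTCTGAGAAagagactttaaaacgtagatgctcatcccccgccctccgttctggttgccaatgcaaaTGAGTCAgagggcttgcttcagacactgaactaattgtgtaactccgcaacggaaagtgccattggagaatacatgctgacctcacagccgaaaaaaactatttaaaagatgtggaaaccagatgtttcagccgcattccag
Both strands were searched for 5 motifs. The Cemip window held the TATA box letters TATAAA starting 29 bases before the start, a motif present in 12.4% of the 32851 RefSeq windows of this length. The Tnfaip6 window held a match to the AP-1 motif TGANTCA (6.75% of windows), TGAGTCA at 142 bases before the start, and a match to the STAT motif TTCNNNGAA (7.02% of windows), TTCTGAGAA at 209 bases before the start. Neither window held the NF-κB motif (1.41% of windows) or the cyclic AMP response element TGACGTCA (1.55% of windows), and no 2 of the matches overlapped. The windows shared none of these motifs, and their GC content was 75.2% for Cemip and 44.4% for Tnfaip6. Windows were present for 7 of the 9 genes. The Has1 window held the cyclic AMP response element letters 83 bases before its start, and the other 4 (Hyal1, Hyal2, Cd44 and Ugdh) matched none of the 5 motifs.

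Cd44 encodes the main cell surface receptor for hyaluronan. It measured 11.45, 11.45 and 11.51 in MR13 and 11.74, 11.73 and 11.65 in WTR-. The MR13 values were all below the WTR- values, by a small margin. Cd44 was 1.18-fold lower in MR13 (95% CI 1.08 to 1.28, log2 difference -0.24, SE 0.05, adjusted p = 0.0063). The array gives 1 value for the whole Cd44 gene, so its splice forms could not be told apart. Whether the fall lay in the amount of transcript or in exon use was not tested.

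Genes that act on Cd44 splicing were therefore set beside it. Of 7 measured factors for its variable exons, 2 fell (all genes, 20.6%), 1 rose (all genes, 17.0%) and 4 were not called. The median difference was 0.01. The 2 that fell were the epithelial splicing regulators Esrp1 and Esrp2, which promote inclusion of Cd44 variable exons. Esrp2 measured 6.88, 6.73 and 6.80 in MR13 and 8.88, 8.71 and 8.79 in WTR- (difference -1.99, SE 0.07, adjusted p = 6.41e-08). Esrp1 measured 5.11, 5.58 and 4.95 in MR13, against 10.74, 10.72 and 10.67 in WTR- (difference -5.50, SE 0.14, adjusted p = 1.48e-08). Its MR13 mean of 5.21 was below the 5.51 that bounded the 30% of genes with the lowest mean and was not shown to exceed background, so the fall in transcript may be larger than this difference. The fall of Esrp1 and Esrp2 went with that of the epithelial markers, whose mean level over the 5 genes was 9.81 to 9.95 on the MR13 arrays and 11.79 to 11.85 on the WTR- arrays, and the part of these markers in the result was not tested. Khdrbs1, which encodes the splicing factor SAM68, rose by 0.25 (SE 0.05).

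The CD44 ligand gene Spp1 had no probe set of its own symbol alone, so it was not measured. Among 10 measured genes for CD44 partners, sheddases and membrane linkers, 5 rose (all genes, 17.0%), 4 fell (20.6%) and 1 was not called. The median difference was 0.13. Those that rose were Cd74, a cell surface partner of CD44 in sensing the cytokine MIF, and 4 proteases. Cd74 measured 9.40, 9.69 and 9.68 in MR13 and 7.93, 7.87 and 7.90 in WTR- (1.69, SE 0.08, adjusted p = 5.77e-07). Of the enzymes that cut the CD44 ectodomain, Adam17 rose by 0.76 (SE 0.05, adjusted p = 5.34e-06), with 11.16, 11.09 and 11.13 in MR13 and 10.33, 10.41 and 10.36 in WTR-. Adam10 (0.52, SE 0.05) and Mmp14 (0.19, SE 0.06), named after their values were seen, rose as well, although Mmp14 was no longer called without MR13 replicate 2, WTR- replicate 2 or WTR- replicate 3 (adjusted p 0.064 to 0.074), and so did Mmp9, a gelatinase that docks on CD44, by 1.37 (SE 0.06). The 4 that fell encode proteins of the link between CD44 and the cytoskeleton. The gene not called, the radixin gene Rdx, encodes another linker (0.07, 95% CI -0.05 to 0.19) and was named after its values were seen. The ankyrin gene Ank3 fell by 1.44 (SE 0.10, adjusted p = 5.44e-06), and the moesin gene Msn (-0.28), the merlin gene Nf2 (-0.26) and the ezrin gene Ezr (-0.16), named after their values were seen, fell less. The call of Ezr was lost with the replicate number as a block (adjusted p = 0.065) and when any array but MR13 replicate 2 was left out (adjusted p 0.061 to 0.10).

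Of 7 other measured hyaluronan receptor genes, 2 rose (all genes, 17.0%), 1 fell (all genes, 20.6%) and 4 were not called. The median difference was 0.08. Tlr2 and Tlr4 encode innate immune receptors that also respond to hyaluronan fragments. Tlr2 measured 8.76, 8.95 and 8.82 in MR13 and 8.02, 7.89 and 7.96 in WTR- (0.89, SE 0.07, adjusted p = 8.88e-06). Tlr4 measured 10.37, 10.43 and 10.37 in MR13 and 9.79, 9.84 and 9.98 in WTR- (0.52, SE 0.06, adjusted p = 0.00019). Neither gene had overlapping groups. Stab1, a scavenger receptor gene, fell by 0.30 (SE 0.07, adjusted p = 0.0082), a call that was lost with the methods' t-test (adjusted p = 0.052). Hmmr, the motility receptor gene RHAMM, was named after its values were seen and was not called (9.90 ± 0.21 in MR13 and 9.68 ± 0.02 in WTR-), although it was with a trended and robust prior (adjusted p = 0.041) and without MR13 replicate 2 (adjusted p = 0.017).

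**Figure D3:**
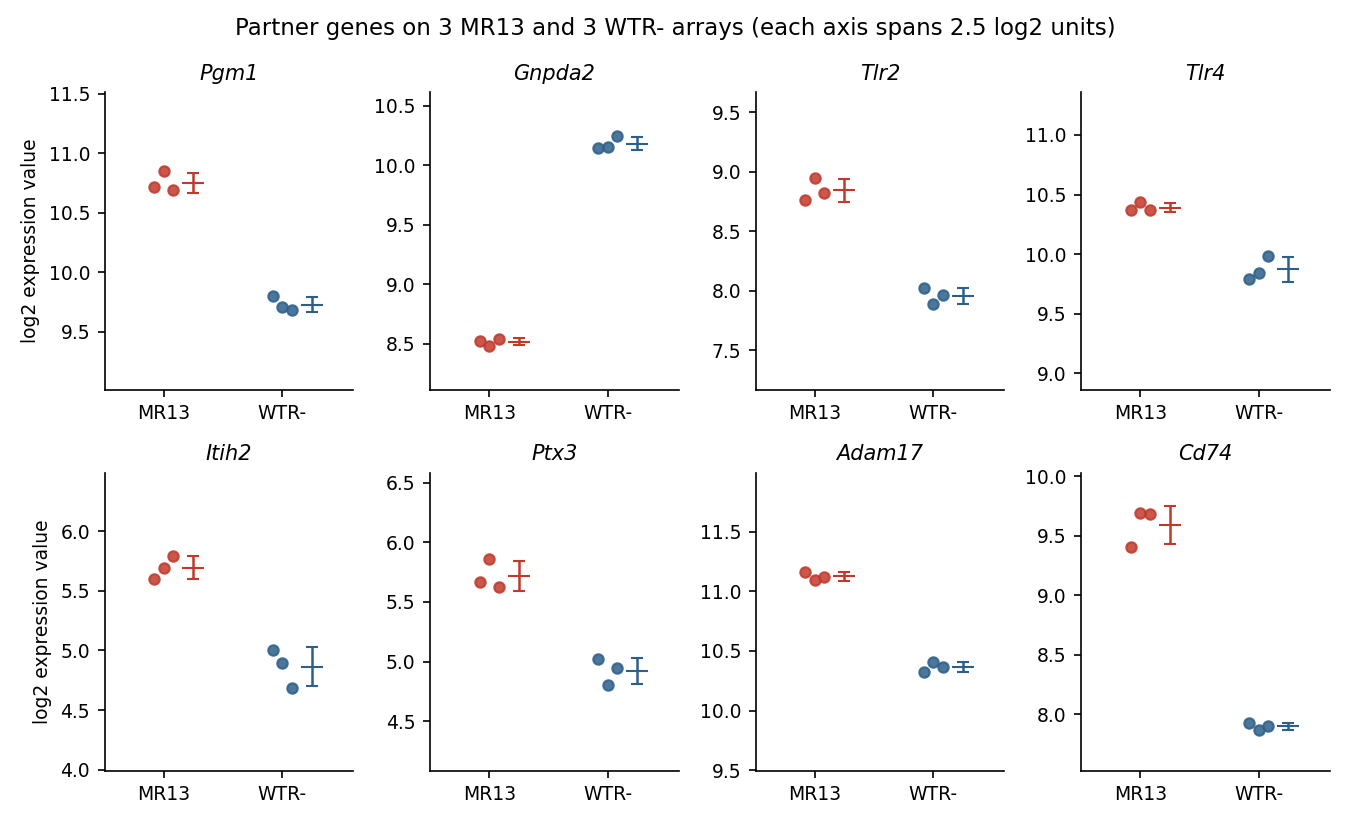
Deposited log2 values (y axis, each panel spanning the same log2 range at its own level) of 8 partner genes on the MR13 arrays (left) and the WTR- arrays (right); points are arrays, and dashes with bars are means and SDs. Gnpda2 lies lower in MR13 (difference -1.66), and the other 7 genes are higher, from Tlr4 (0.52) to Cd74 (1.69). The panels are a selection and do not give the balance of the lists. Called genes not shown include Esrp1, Esrp2, Ank3 and Gnpnat1, which were lower in MR13, and Mmp9, which was higher.

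On the side of breakdown, Cemip, also called KIAA1199 or HYBID, had the largest difference of the 8 genes. It measured 7.50, 7.30 and 7.38 in MR13 and 5.92, 5.87 and 5.87 in WTR-. The lowest MR13 array exceeded the highest WTR- array by far more than the spread within either line. The difference was 1.51 (SE 0.06, adjusted p = 2.71e-07). Hyal2, a membrane-anchored hyaluronidase that cuts long chains, measured 7.97, 8.19 and 8.20 in MR13 and 8.16, 8.25 and 8.25 in WTR-, and its groups overlapped. No difference was detected for Hyal2 (-0.10, 95% CI -0.26 to 0.07, adjusted p = 0.35).

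Hyal1, the main lysosomal hyaluronidase, lies in the same gene cluster, where RefSeq places it over parts of Naa80 and Hyal3. Of the 2 probe sets that the annotation gives to Hyal1 and Naa80 together, the first measured 7.21, 7.31 and 7.28 in MR13 and 6.93, 6.70 and 6.80 in WTR- (difference 0.45, SE 0.07, adjusted p = 0.0013 over all probe sets). The other measured 8.14, 8.19 and 8.24 in MR13 and 7.98, 7.96 and 7.96 in WTR- (0.22, SE 0.05, adjusted p = 0.011). Both were higher in MR13, and which of the genes this signal came from could not be told.

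Of 8 other measured breakdown genes, 1 rose (all genes, 17.0%), 1 fell (all genes, 20.6%) and 6 were not called. The median difference was 0.04. Hyal3, a hyaluronidase relative whose locus overlaps Hyal1 and Naa80, rose by 0.35 (SE 0.06, adjusted p = 0.0016). Gusb, the lysosomal β-glucuronidase that trims hyaluronan fragments, fell by 0.29 (SE 0.07, adjusted p = 0.0071). Cemip2, a membrane-bound relative of Cemip with hyaluronidase activity in mice, was named after its values were seen. It was not called (8.42 ± 0.11 in MR13 and 8.63 ± 0.08 in WTR-, adjusted p = 0.051), although it was under 5 of 14 alternatives, among them the one without MR13 replicate 2 (adjusted p = 0.019).

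**Figure D4:**
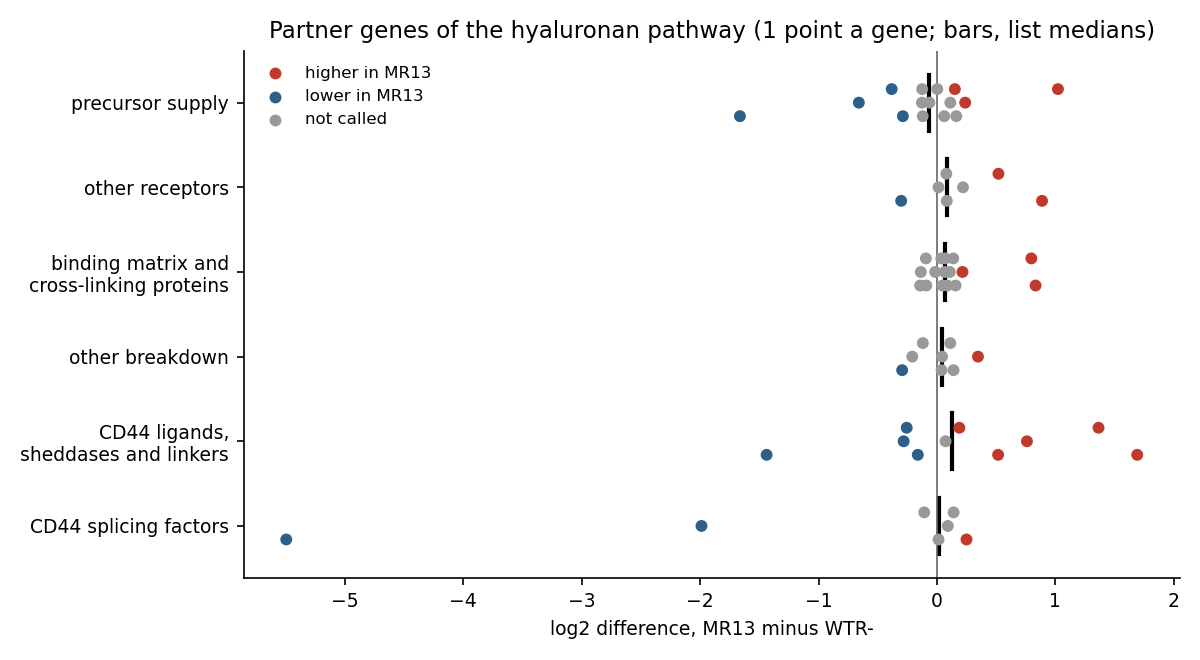
Log2 difference between MR13 and WTR- (x axis) of each measured gene in 6 lists of partner genes (y axis); each point is a gene, in colour where the adjusted p was below 0.05, and black bars mark list medians. The medians lie between -0.06 and 0.13, while single genes reach -5.50 (Esrp1, with a low MR13 signal not shown to exceed background) and 1.69 (Cd74).

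The 3 genes whose pattern over the 6 arrays was most like that of Cemip were the spindle checkpoint kinase gene Ttk, the cohesin subunit gene Stag1 and Pias1, with Pearson's r above 0.999 for each. The arrays form 2 groups, so a value near 1 is given by any gene with a steady difference between the lines, and Ttk rose by only 0.71.

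Hyaluronan is made in quantity by fibroblasts, so markers of other cell types were read on the same arrays. Of 8 fibroblast markers, 2 rose (all genes, 17.0%) and none fell (all genes, 20.6%). Those that rose were Pdgfra (10.19 ± 0.10 in MR13 and 8.37 ± 0.05 in WTR-) and Dcn (6.87 ± 0.29 in MR13 and 5.18 ± 0.13 in WTR-). The mean level over that list ranged from 6.61 to 6.75 on the MR13 arrays and from 6.11 to 6.22 on the WTR- arrays, and the collagen genes Col1a1, Col1a2 and Col3a1 were not called. Of 6 leukocyte markers 1 rose (all genes, 17.0%), Cd68 by 0.35, and the list means were 5.77 to 5.84 in MR13 and 5.77 to 5.80 in WTR-. Of 4 endothelial markers none was called (all genes, 37.6%), with list means of 5.16 to 5.22 in MR13 and 5.05 to 5.21 in WTR-. The pan-leukocyte gene Ptprc differed by 0.05. The part of these marker differences in the results for the hyaluronan genes was not tested.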

How the data were processed

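Total RNA of 3 MR13 and 3 WTR- cultures was hybridised to Affymetrix arrays. The values deposited by the authors lie between 2.42 and 14.4 and were read as log2 intensities that the authors had already normalized, since the array medians agree. For this the submitters' processing notes name affy and limma without versions. How background was corrected and probes summarized is not given in the sources used here. Of 28350 probe sets, 21780 had 1 gene symbol in the platform annotation, 1618 had several and named no gene, and 4952 had none. Entrez identifiers were looked up in RefSeq (GRCm38.p6), which left 91 of the 21780 unmatched and altered no symbol. Each gene was represented by its probe set with the highest mean, which gave 19933 genes. There were 0 columns of other series.

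The test of MR13 against WTR- was limma's moderated two-sided test (limma 3.58.1 in R 4.3.3, lmFit and eBayes, no covariate) with Benjamini-Hochberg adjustment over all 19933 genes. The lists, like the members, were chosen with earlier results of these data known. Lists were described by counts and medians, with no set test. The genes named were all members, up to 4 called genes per list with the largest differences and groups that did not overlap, and the 3 genes most like the member with the largest difference. Others are marked as named after their values were seen. The list genes Gpi1, Gnpda1, Susd5, Spp1 and Hnrnpa1 were among those with no probe set of their own symbol alone used here, and they were not analysed here. The fit was tested on simulated data. The number of arrays limits the precision, and no detection calls were used. Alternatives were other normalization, filter, probe set and prior choices, the replicate number as a block, the t-test that the methods name for 2 groups in general, and leaving out each array.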

Additional observations from a re-analysis of the deposited data

How the results depend on the processing

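The call of each of the 8 measured genes, and its direction, held under every alternative in which it was tested. For direction, several of the alternatives could not differ. Each of the 8 genes had 1 probe set, so the probe set choices used the same values. The filter, the prior, the block and the t-test left each difference unchanged and bore on the adjusted p alone. Without the dimmest 30% of genes, 2 of the 8 were not tested (Has1 and Has3) and 5 of 6 were called. Of all 13953 genes kept by that filter, 7640 were called. The list of hyaluronan-binding matrix and cross-linking proteins then had 1 called gene of 7, because Itih2, Itih4 and Ptx3 were among those left out, and with a trended and robust prior 5 of the 7 splicing factors were called rather than 3. Leaving out each array in turn gave differences of 1.45 to 1.55 for Cemip, 1.11 to 1.41 for Tnfaip6, -0.59 to -0.52 for Has2 and -0.69 to -0.52 for Has3, and 6 of 8 genes called each time. In the same fits 6716 to 6971 of the 19933 genes were called. Over all genes, 6524 were called with the methods' t-test after Benjamini-Hochberg adjustment and 8140 at the unadjusted threshold of the methods,, with Stab1 lost after adjustment, and 7776 after quantile normalization, 3940 of them higher and 3836 lower in MR13, against 3386 higher and 4111 lower as reported. With the replicate number as a block, 6 of the 8 genes and 7442 of all genes were called, against 6 and 7497 without it. Same-numbered arrays deviated together at r = 0.13, -0.0012 and 0.18 for replicates 1, 2 and 3, and different-numbered arrays at r = -0.20 to 0.05. The arrays of replicates 1 and 3 were most like the array of their own number, and those of replicate 2 were not. The main fit did not pair the samples by number, and the counts with the number as a block are those given above. The true level of dim genes such as Has1 is not known, since no background level was measured.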
